A study of Mus musculus with 6 samples.

Results

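Open chromatin at the ends of noncoding RNA genes was described in the mouse retina at E14.5, the stage of embryonic development when ganglion cells, the output neurons of the retina, are being born. ATAC-seq, in which the transposase Tn5 cuts accessible DNA and tags it for sequencing, was performed on C57BL/6 embryos of 2 genotypes. SE/SE retinas carried a mutated shadow enhancer of Atoh7 on both alleles, and wild-type retinas were Atoh7 +/+. Atoh7 encodes the basic helix-loop-helix factor that ganglion cell formation requires, and a shadow enhancer is a second, distal enhancer that drives a gene together with its main one. Each genotype had 3 libraries, each made from the pooled pair of retinas of 1 animal, so the 3 libraries are biological replicates. The whole retina was used, so every value is an average over progenitors and newborn neurons, and fewer cells with an open region cannot be told apart from less opening per cell.

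Regions were chosen by measured peaks and by position. The authors' peaks in the 6 libraries on chromosomes 1 to 19 were merged where they shared at least 1 bp. A merged region was kept when its midpoint lay within 1 kb of either end of a noncoding RNA gene and more than 1 kb from both ends of every protein-coding gene. The genes and their classes came from the RefSeq annotation of GRCm38.p6, and pseudogenes were not counted as noncoding. This gave 2592 regions of 45562 merged regions (5.69%), which lay at 2300 of the 16359 noncoding genes on these chromosomes. Regions at protein-coding gene ends numbered 13256 (29.1%), of which 1724 were also within 1 kb of a noncoding gene end and were not kept, and 29714 (65.2%) lay away from both kinds of end. Because a peak in any library was enough for a region to enter the set, the number of libraries that share a region is a description of the set.

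Noncoding RNA genes fall into groups that are transcribed in different ways. Long noncoding RNAs (lncRNAs) are made by RNA polymerase II from promoters built like those of messenger RNAs, and some serve only to carry a microRNA or a small nucleolar RNA in an exon or intron. MicroRNAs (miRNAs) are cut from such longer transcripts and repress messenger RNAs that match their seed, bases 2 to 8. Transfer RNAs, 5S ribosomal RNA, 7SL and Y RNAs are made by RNA polymerase III. For transfer RNAs and 5S ribosomal RNA the promoter elements lie mostly inside the gene. The spliceosomal U RNAs, U6 aside, are made by polymerase II from short dedicated promoters. In the developing retina miR-9 is known from progenitors, miR-124 from neurons and the miR-183 cluster from photoreceptors.

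The peak lists held 39115, 42722 and 44242 peaks in the SE/SE libraries and 31340, 34797 and 27873 in the wild-type libraries. All 3 SE/SE lists were therefore longer than all 3 wild-type lists. Per the labels' protocols, the SE/SE libraries had 15 to 16 PCR cycles and the wild-type libraries 17 to 19, so amplification, list length and genotype cannot be told apart. Read depth is unknown. Of the genes that mark the tissue, each SE/SE library and each wild-type library had peaks at the ends of 7 to 8 of 8 progenitor genes, 5 of 5 neurogenic genes and 4 to 5 of 5 ganglion cell genes. The pigment epithelium genes Tyr, Rpe65 and Tyrp1, the lens genes Cryaa, Cryab and Lim2, the endothelial genes Cdh5, Pecam1 and Tie1 and the blood and microglia genes Ptprc, Csf1r and Gata1 had none in any library, while in each library 2 of the 5 pigment epithelium genes and 1 of the 4 genes of each other type did. Of 4 mesenchyme and muscle genes, 3 had one in each SE/SE library and 2 to 3 in each wild-type library. Signal strength is given as the percentile of the authors' deposited signal value within the list of 1 library, so that 100 is the strongest peak of that list. The signal value grows with peak width. Since the lists differ in length, percentiles are read inside 1 list only and not between genotypes.

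Promoter windows from 250 bases before to 50 after the gene start are printed for 5 lncRNA genes whose regions are described below. Snhg8 and Dancr, hosts of small nucleolar RNAs, had peaks of high rank in all 6 libraries. The imprinted Kcnq1ot1 and the eye gene partner Six3os1 also had peaks in all 6, at lower rank. Among the 2592 regions only that of Gm46178 had a peak in every wild-type library and in no SE/SE library. This was 0.0386% of them, against 0.0329% of all merged regions. Sequences are those of RefSeq for GRCm38.p6 on the strand of the gene. Capitals mark matches, on either strand, to 9 short motifs. The general promoter motifs were TATAAA, the letters of the TATA box, with GGGCGG for the GC box and CCAAT for the CCAAT box. Those of broadly expressed factors were CCGGAAG for ETS factors, then GCGCATGC for NRF1, and for CREB the palindrome TGACGTCA. The E-boxes of helix-loop-helix factors were CAGCTG in a first form, with CAGATG as a second form, and homeodomain factors were represented by TAATTA. No motif contains another, though matches of different motifs may overlap.
Snhg8, chr3:123508287-123508586, minus strand: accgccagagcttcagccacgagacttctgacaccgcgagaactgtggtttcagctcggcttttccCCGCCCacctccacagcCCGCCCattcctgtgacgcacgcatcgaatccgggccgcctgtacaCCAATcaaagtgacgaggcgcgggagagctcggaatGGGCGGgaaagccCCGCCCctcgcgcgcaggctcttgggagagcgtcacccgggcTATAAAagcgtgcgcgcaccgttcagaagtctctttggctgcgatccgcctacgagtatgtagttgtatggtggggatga
Dancr, chr5:74092810-74093109, plus strand: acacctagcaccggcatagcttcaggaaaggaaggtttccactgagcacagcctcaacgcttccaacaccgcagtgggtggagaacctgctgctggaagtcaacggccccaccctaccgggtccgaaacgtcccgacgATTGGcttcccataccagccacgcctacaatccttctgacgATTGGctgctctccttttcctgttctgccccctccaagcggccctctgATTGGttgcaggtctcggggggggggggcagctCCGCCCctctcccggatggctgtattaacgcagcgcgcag
Kcnq1ot1, chr7:143296498-143296797, minus strand: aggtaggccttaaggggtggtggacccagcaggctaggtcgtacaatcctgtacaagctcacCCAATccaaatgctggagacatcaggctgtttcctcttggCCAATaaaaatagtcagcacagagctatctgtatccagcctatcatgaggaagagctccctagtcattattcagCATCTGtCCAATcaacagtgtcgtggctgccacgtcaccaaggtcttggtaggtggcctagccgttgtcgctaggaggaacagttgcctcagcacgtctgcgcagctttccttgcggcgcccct
Six3os1, chr17:85618347-85618646, minus strand: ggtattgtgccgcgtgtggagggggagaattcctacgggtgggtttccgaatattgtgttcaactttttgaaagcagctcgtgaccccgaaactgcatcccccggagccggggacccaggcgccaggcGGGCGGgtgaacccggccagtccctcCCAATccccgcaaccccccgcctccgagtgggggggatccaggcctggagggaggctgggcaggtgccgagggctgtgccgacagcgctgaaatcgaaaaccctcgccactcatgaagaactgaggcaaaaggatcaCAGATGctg
Gm46178, chr1:191120652-191120951, plus strand: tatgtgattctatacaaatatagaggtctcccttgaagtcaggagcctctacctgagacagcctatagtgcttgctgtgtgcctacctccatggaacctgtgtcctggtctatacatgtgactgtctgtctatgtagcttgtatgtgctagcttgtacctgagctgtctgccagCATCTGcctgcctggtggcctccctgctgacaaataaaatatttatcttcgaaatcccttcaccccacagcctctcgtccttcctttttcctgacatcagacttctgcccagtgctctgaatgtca
The Snhg8 window had a TATA box that began 30 bases before the start, 4 matches to the GC box and 1 to CCAAT. The Dancr window had 3 CCAAT matches, at 112, 71 and 23 bases before the start, and 1 GC box. Kcnq1ot1 had 3 CCAAT matches and 1 E-box, Six3os1 1 GC box, 1 CCAAT and 1 E-box, and Gm46178 1 E-box only. The open regions covered all 300 bases of the first 4 windows and 62 bases of the Gm46178 window. A match is a string of letters and not a shown binding site.

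Mature miRNAs are printed for genes of the neural miRNA list whose regions are described below, with the seed in capitals.
mmu-let-7i-5p: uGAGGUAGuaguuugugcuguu
mmu-let-7e-5p: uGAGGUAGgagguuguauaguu
mmu-miR-9-5p: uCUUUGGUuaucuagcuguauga
mmu-miR-7a-5p: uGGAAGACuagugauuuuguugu
mmu-miR-7b-5p: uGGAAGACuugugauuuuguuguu
mmu-miR-132-3p: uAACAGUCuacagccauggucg
mmu-miR-212-3p: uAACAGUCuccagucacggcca
mmu-miR-137-3p: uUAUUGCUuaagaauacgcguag
mmu-miR-128-3p: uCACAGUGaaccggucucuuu
mmu-miR-210-3p: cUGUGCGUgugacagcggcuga
mmu-miR-183-5p: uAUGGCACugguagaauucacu
mmu-miR-96-5p: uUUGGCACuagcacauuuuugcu
mmu-miR-130b-3p: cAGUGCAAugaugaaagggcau
Shared seeds join let-7i with let-7e, miR-7a with miR-7b, and miR-132 with miR-212. Mir9-2 and Mir9-3 encode the same mature miR-9-5p.

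The share of genes with a region of this kind ran from 2.26% to 78.7% among the larger RNA classes. A gene whose only region also lies at a protein-coding gene end is counted without one here, as was the case for 1465 noncoding genes, among them 1287 lncRNA, 68 miRNA, 45 transfer RNA and 0 ribosomal RNA genes. Of the autosomal lncRNA genes, 1874 of 12408 (15.1%) had a region, and of the miRNA genes 104 of 1136 (9.15%). Transfer RNA genes had a region in 166 of 391 cases (42.5%) and genes annotated as ribosomal RNA in 48 of 61 (78.7%). Small nuclear RNA genes had one in 55 of 931 cases (5.91%) and small nucleolar RNA genes in 29 of 1286 (2.26%), and 14 and 31 more genes of these classes had a region only at a protein-coding gene end. Both Y RNA genes and the telomerase RNA gene Terc had a region, and 0 of 4 RNase P RNA genes did, although 1 of these, Rpph1, had a region at a protein-coding gene end. A region can serve several genes, as 215 of the 2592 did. The median distance of the midpoint from the gene end was 313 bp, and 865 regions (33.4%) lay inside the span of a protein-coding gene.

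More of these regions had a peak in SE/SE retinas than in wild-type retinas. A peak was present at 2059, 2334 and 2394 regions (79.4%, 90.0% and 92.4%) in the SE/SE libraries and at 1610, 1802 and 1420 (62.1%, 69.5% and 54.8%) in the wild-type libraries. The lowest SE/SE library stood above the highest wild-type library. The mean over SE/SE libraries was 2262 ± 179, against 1611 ± 191 over wild-type libraries (SD, n = 3 each), a ratio of 1.40. The exact two-sided permutation test gave p = 0.1, the smallest that 3 libraries against 3 can give. The same peaks let the regions into the set, so this p and those for presence below only describe the set. Over all 45562 merged regions the ratio of the means was 1.42. They made up 5.67 ± 0.0384% of the regions of an SE/SE library and 5.74 ± 0.0525% of those of a wild-type library, a difference of -0.0744 percentage points (exact permutation p = 0.2). The sign of that small difference turned under 6 of the other settings tried.

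**Figure D1:**
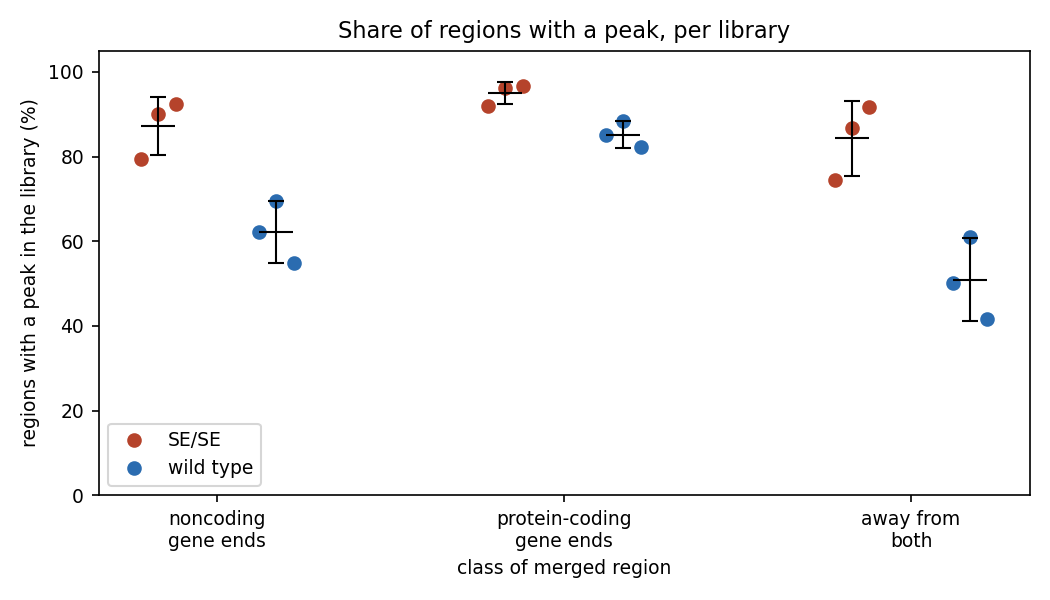
Share of merged regions with a peak in each library, for regions at noncoding gene ends, at protein-coding gene ends and away from both; points are the 3 SE/SE and 3 wild-type libraries, and bars give the mean and SD. At noncoding gene ends the SE/SE libraries lie between 79.4% and 92.4% and the wild-type libraries between 54.8% and 69.5%.

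Protein-coding gene ends varied less between the libraries. A peak was present at 12589 ± 352 of them in SE/SE retinas, against 11295 ± 410 in wild-type retinas (SD, n = 3 each). The share of noncoding gene-end regions with a peak was lower than the share of protein-coding ones in every library. The noncoding share minus the protein-coding share was -7.69 ± 4.25 percentage points for SE/SE and -23.1 ± 4.29 for wild type. The 2 ranges did not overlap, and the difference between the genotypes of 15.4 percentage points had an exact permutation p of 0.1. Set against all merged regions instead, the difference was -0.857 percentage points (exact permutation p = 0.2). Regions away from both kinds of end had a peak in 74.6% to 91.6% of cases in SE/SE libraries and 41.6% to 61.1% in wild-type libraries. The gap was thus not particular to noncoding gene ends. Across the 19 values compared between the genotypes, no p was under 0.05, either raw or adjusted by Benjamini and Hochberg, and the lowest adjusted p was 0.173 in these exact permutation tests.

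With lists of equal length the genotypes came close together. When only the 27873 strongest peaks of each list were kept, 1751 noncoding gene-end regions were left. A peak was then present at 1461, 1500 and 1466 of them in the SE/SE libraries and at 1434, 1464 and 1420 in the wild-type libraries, so that 1 wild-type library lay within the SE/SE range. The difference of the means was 36.3 regions (exact permutation p = 0.2). The noncoding share minus the protein-coding share then differed between the genotypes by 1.02 percentage points (exact permutation p = 0.3).

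**Figure D2:**
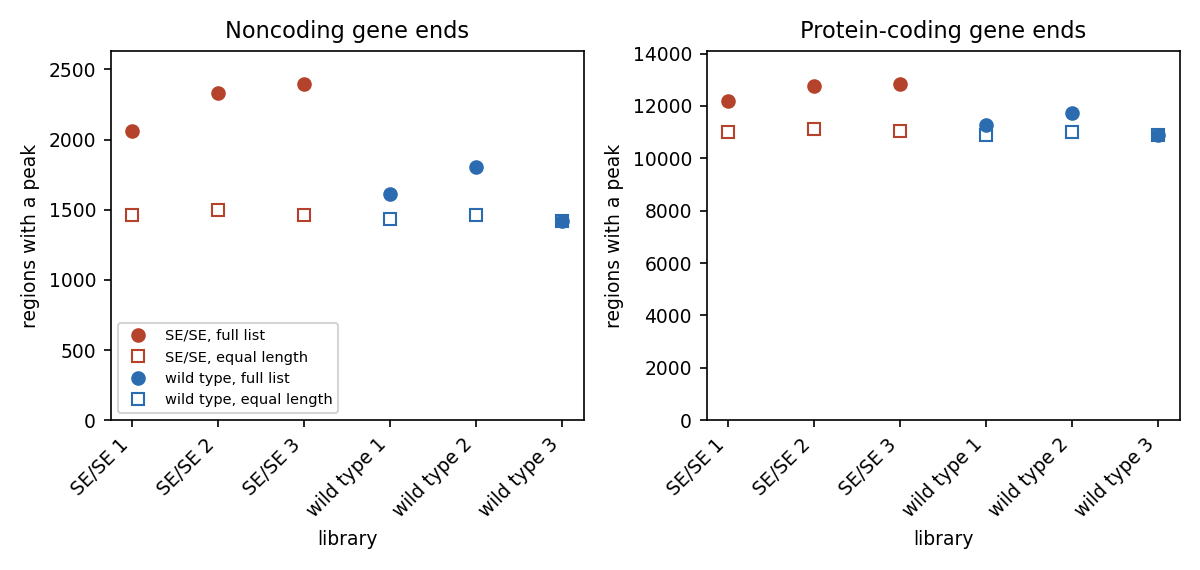
Number of regions with a peak per library at noncoding gene ends (left) and protein-coding gene ends (right), with full lists (filled circles) and with the 27873 strongest peaks of each list (open squares). At noncoding gene ends the libraries lie between 1420 and 2394 with full lists and between 1420 and 1500 with lists of equal length.

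Close to the same share of noncoding gene ends as of all regions was found in every library. A peak in 6 of 6 libraries was seen at 1341 of the 2592 regions (51.7%), against 52.0% of all merged regions and 81.0% of protein-coding gene-end regions. A peak in 3 of 3 SE/SE and 0 of 3 wild-type libraries was seen at 201 regions (7.75%), against 8.22% of all merged regions and 2.75% of protein-coding gene-end regions. The reverse, a peak in every wild-type library and no SE/SE library, was seen at 1 region (0.0386%), against 0.0329% of all merged regions. The 1341 make up 99.3% of the 1351 regions that every wild-type library held, against 99.7% over all merged regions. A single library accounted for 307 regions (11.8%, against 11.9% of all merged regions), of which 32, 108 and 147 were in the SE/SE libraries and 4, 16 and 0 in the wild-type libraries. All 2592 regions overlapped a peak in both of the authors' joint lists, the 201 included. So did 45559 of all 45562 merged regions (99.99%).

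RNA classes differed in how many of their regions all libraries shared. All 6 libraries had a peak at 34 of 48 ribosomal RNA regions (70.8%), 45 of 67 small nuclear RNA regions (67.2%) and 94 of 153 transfer RNA regions (61.4%). For miRNA regions the count was 50 of 93 (53.8%), for lncRNA regions 1097 of 2187 (50.2%) and for small nucleolar RNA regions 4 of 17 (23.5%). SE/SE libraries alone had 182 lncRNA regions (8.32% of the class), 9 miRNA regions (9.68%) and 5 transfer RNA regions (3.27%). They also had 3 small nucleolar RNA regions (17.6% of 17) and no ribosomal RNA region. The share over all merged regions was 8.22%. Per library, 1907 ± 151 lncRNA ends had a peak in SE/SE retinas and 1320 ± 169 in wild-type retinas (SD, n = 3 each). For miRNA ends the values were 83.7 ± 7.77 in SE/SE and 59.0 ± 6.00 in wild-type retinas. The genotypes did not overlap in either class, nor did they over all merged regions. The ratio of the means was 1.45 for lncRNA and 1.42 for miRNA ends, against 1.42 over all merged regions. Ribosomal RNA ends with a peak averaged 43.3 ± 1.15 for SE/SE and 42.3 ± 4.04 for wild type, and transfer RNA ends 133 ± 11.0 for SE/SE and 114 ± 9.07 for wild type, with overlapping ranges in both classes. Near-identical gene copies share reads in these small RNA classes, and the sources used here do not say how reads with several matches were placed, so a peak at 1 copy may hold reads of another.

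**Figure D3:**
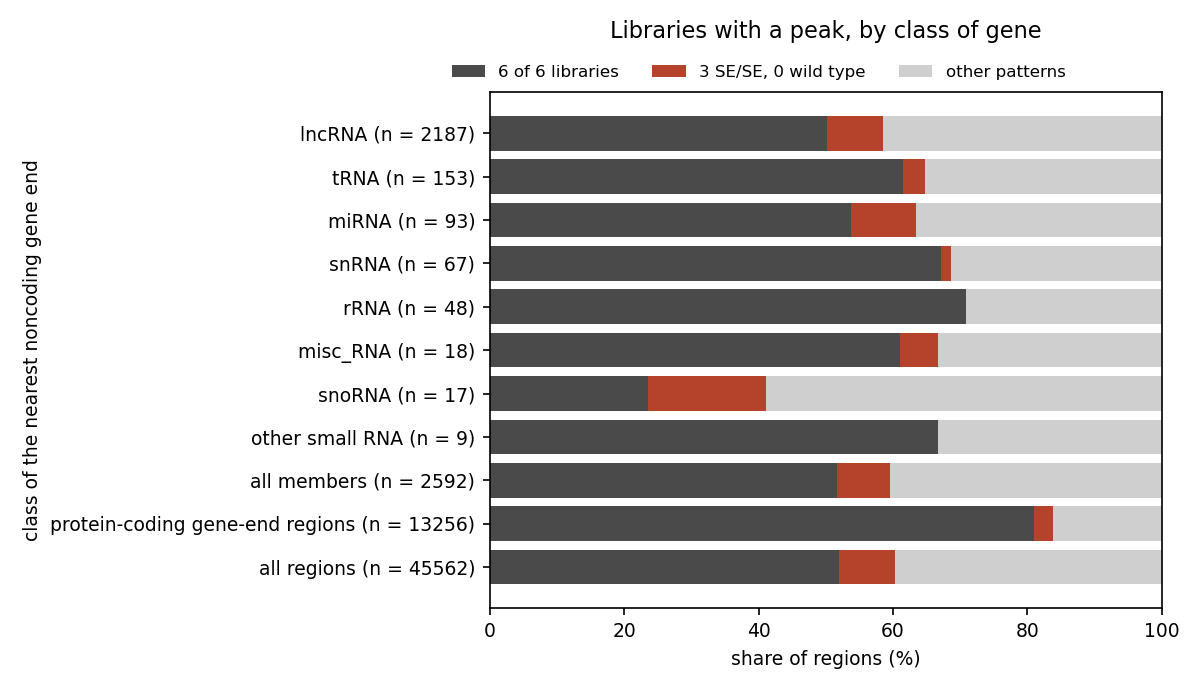
Share of regions with a peak in 6 of 6 libraries (dark), in 3 SE/SE and 0 wild-type libraries (red) or in any other combination (grey), by class of the nearest noncoding gene, with all 2592 noncoding gene-end regions (all members), protein-coding gene-end regions and all merged regions below. The dark share runs from 23.5% for small nucleolar RNA to 70.8% for ribosomal RNA.

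lncRNA regions were shared most often near the start of the gene. Strand was known from the RefSeq promoter windows for most of these genes. Of 1322 regions within 1 kb of a 5′ end, 53.5% had a peak in all 6 libraries, and their median width was 312 bp. SE/SE libraries alone had 79 of them (5.98%). Of 373 regions at a 3′ end only, 36.2% had a peak in all 6 libraries, and their median width was 212 bp. SE/SE libraries alone had 54 of these 373 (14.48%). The share over all merged regions was 8.22%. A peak was present at 84.6 ± 7.18% of the 3′ regions in SE/SE and at 48.8 ± 9.57% in wild type, and at 87.2 ± 7.10% of the 5′ regions in SE/SE retinas, against 63.4 ± 7.87% in wild-type retinas (SD, n = 3 each). Whatever the end, the share seen in all libraries was 55.4% for lncRNA regions up to 250 bp from the end and 44.7% for those 751 to 1000 bp away. Transfer RNA and small nuclear RNA regions showed the same order, with 67.3% against 28.6% and 81.4% against 14.3%, although the far groups held 7 regions each.

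The rule keeps midpoints on both sides of the end alike, so a median summit near the end follows from it. For the 707 regions at lncRNA 5′ ends that all libraries shared, the median summit was 12 bp upstream of the gene start, with the middle of the distribution from 156 bp upstream to 299 bp downstream, and 54.5% of summits lay within 250 bp, where an even spread over the window would put 25% of midpoints. For the 615 that fewer libraries had, the median was 2 bp downstream and 42.0% lay within 250 bp.

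**Figure D4:**
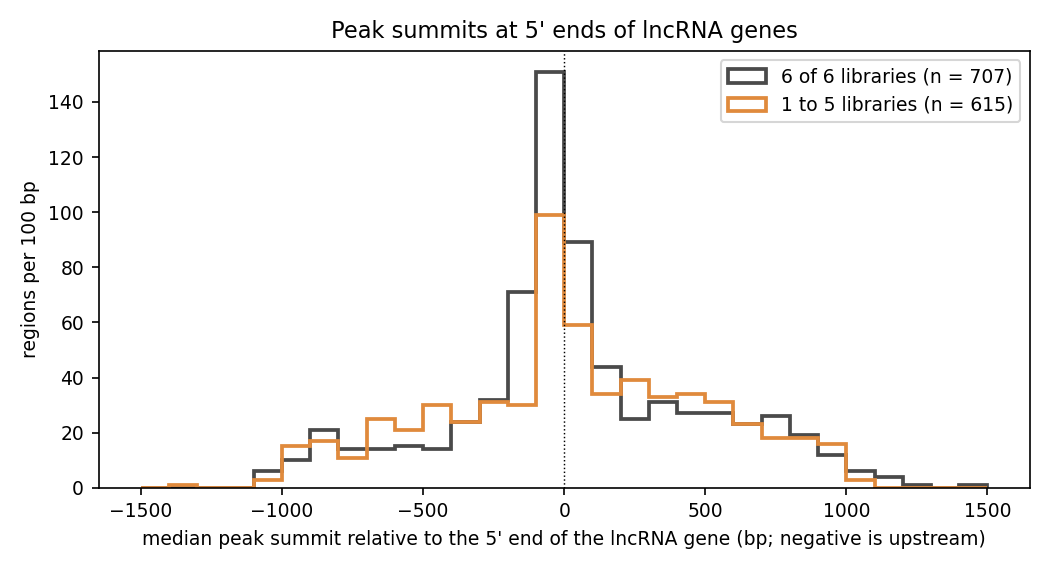
Position of the median peak summit relative to the 5′ end of the lncRNA gene, in bins of 100 bp, for regions with a peak in 6 of 6 libraries (dark, n = 707) and in 1 to 5 libraries (orange, n = 615). Both outlines are highest at the gene start, with 54.5% and 42.0% of summits within 250 bp of it.

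Promoter windows were compared by the number of libraries with a peak. Of the 1874 lncRNA genes with a region, 1456 had a promoter window in the RefSeq table. The 608 lncRNA windows under a region that all libraries shared had a median GC content of 58.7%, the 264 under regions with a peak in 1 to 5 libraries 52.7%, and the 9367 under no region 47.0%. A GC box was present in 51.8%, 25.4% and 7.90% of these windows, beside 47.0% of protein-coding windows and 16.3% of all 11311 lncRNA windows. A TATA box was present in 8.22%, 11.0% and 17.1%, beside 13.6% of all 32851 promoter windows. The E-box CAGATG was in 16.1%, 20.1% and 23.8%, beside 17.2% of all windows. CAGCTG and CCAAT did not follow such an order. CAGCTG was in 18.8%, 24.2% and 17.2%, beside 16.3% of all windows, and CCAAT in 32.4%, 31.1% and 36.6%, beside 37.4% of all windows. The sets differ in GC content, whose part in the motif shares was not tested.

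Noncoding gene ends were weaker and narrower than protein-coding ones. Within single lists the median percentile of their peaks was 46.6 to 47.2 in SE/SE and 45.9 to 47.5 in wild type. At protein-coding gene ends it was 77.6 to 78.8 in SE/SE and 73.0 to 76.3 in wild type, and away from both 38.7 to 39.2 in SE/SE and 37.5 to 38.3 in wild type. The median width was 280 bp, against 700 bp at protein-coding gene ends and 224 bp away from both. Among the regions kept, 199 (7.68%) overlapped a promoter window of a protein-coding gene, although their midpoints lay more than 1 kb from protein-coding gene ends. These had a peak in all 6 libraries in 87.9% of cases and a median width of 842 bp. The other 2393 had one in all libraries in 48.7% of cases and a median width of 257 bp. Of the 2166 regions whose nearest gene has only a provisional symbol (such as Gm or Rik names), all libraries shared 49.5%, and of the 426 at genes with another symbol, 62.9%.

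The strongest regions mostly lay inside protein-coding genes. By the lowest of the 6 percentiles, the first 10 regions were those of Gm32139, Rn4.5s, 2410022M11Rik, 2700012I20Rik, 1110020A21Rik, Gm9958, Gm36904, Gm10910, Gm30340 and Zbtb11os1. Of these, 9 lay inside the span of a protein-coding gene and 6 overlapped a protein-coding promoter window, those of Zmym5, Sin3a, Ppm1b, Ankrd17, Prdm10 and Zbtb11. A peak there cannot be assigned to 1 of the genes. The region of Gm32139 (chr18:45558078-45560613), in Kcnn2, had percentiles of 99.8, 99.9 and 99.9 in the SE/SE libraries and 99.6, 99.6 and 99.5 in the wild-type libraries. Gm30340 (chr3:17785143-17787319), the only one outside a protein-coding gene, had 99.5, 99.6 and 99.7 in the SE/SE libraries and 99.3, 99.2 and 98.8 in the wild-type libraries. Rn4.5s (chr6:47654343-47656430), listed as ribosomal RNA though 4.5S RNA is a separate rodent small RNA with many repeated copies, had 99.6, 99.5 and 99.4 in the SE/SE libraries and 99.9, 99.8 and 99.8 in the wild-type libraries. These ranks put all 3 regions among the strongest peaks of every list.

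Host genes of small nucleolar RNAs had an open end in nearly every library. Of 21 listed host genes, 14 had a region of this kind, the other 7 had only a region that also lies at a protein-coding end, and 13 of the 14 had a peak in all 6 libraries. Snhg8 (chr3:123507990-123509365), whose window is printed above, had percentiles of 97.9, 98.2 and 98.4 in the SE/SE libraries and 97.8, 98.1 and 97.8 in the wild-type libraries. Snhg5 (chr9:88522519-88523606) had 94.1, 94.8 and 95.3 in the SE/SE libraries and 93.9, 94.7 and 95.0 in the wild-type libraries, and Dancr (chr5:74092647-74093570), which carries Snora26, had 90.0, 90.8 and 90.5 in the SE/SE libraries and 89.3, 90.0 and 88.2 in the wild-type libraries. Each of these 3 genes ranked near the top of every list. Snhg15, Snhg9, Epb41l4aos, Snhg4, Snhg16, Snhg3, Snhg17, Snhg12, Snhg7 and Snhg20 also had peaks in 6 of 6 libraries, and for Snhg4 and Epb41l4aos the strand, and so which end is the start, was not known here. Snhg11, a host gene known from neurons, was the exception, with 9.80 and 21.7 in 2 SE/SE libraries and 17.1 in 1 wild-type library.

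Of 34 listed lncRNAs of retina and brain, 18 had a region and 13 had a peak in all 6 libraries. Crnde (chr8:92355593-92356830) had percentiles of 92.4, 94.0 and 94.8 in the SE/SE libraries and 92.3, 92.6 and 92.5 in the wild-type libraries. Malat1, an abundant nuclear RNA of speckles, had its stronger region (chr19:5803053-5803883), 796 bp from its 5′ end, at 83.3, 85.2 and 86.7 in the SE/SE libraries and 82.9, 83.1 and 81.4 in the wild-type libraries, and Neat1, the scaffold of paraspeckles, had 58.7, 65.5 and 68.0 in the SE/SE libraries and 54.8, 54.7 and 48.8 in the wild-type libraries. Miat, also called Gomafu and known from retinal and brain neurons, had a region at its 5′ end (chr5:112228326-112229139) at 70.2, 67.5 and 74.4 in the SE/SE libraries and 64.9, 68.4 and 55.0 in the wild-type libraries. Six3os1 is transcribed from the opposite strand beside Six3, a homeobox gene of the eye field, and its start (chr17:85617994-85618774) had 66.6, 74.4 and 74.2 in the SE/SE libraries and 60.03, 67.8 and 67.2 in the wild-type libraries. Every library had a peak at each of these 5 genes.

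Other lncRNAs of this list, named after their values were seen, had weaker peaks. Pax6os1, opposite the eye gene Pax6, had 35.8, 41.0 and 48.1 in the SE/SE libraries and 15.5, 28.4 and 20.2 in the wild-type libraries. Rmst, a neural lncRNA, had 27.5, 28.2 and 20.8 in the SE/SE libraries and a peak in 1 wild-type library, at 1.18. Dlx1as had 8.16, 19.0 and 14.4 in the SE/SE libraries and 5.40 in 1 wild-type library. Pantr1, beside Pou3f3, had 28.0 and 23.8 in 2 SE/SE libraries and no peak in wild type at the region kept here. A further region near an end of Pantr1 lay at a protein-coding gene end and was not kept. All percentiles given here for these genes lay below the median peak of each list.

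Among imprinted and chromatin-acting lncRNAs, 8 of 22 had a region. Kcnq1ot1, which silences neighbouring genes on the paternal chromosome, had a region at its start inside Kcnq1 (chr7:143296432-143296831) at 70.3, 72.1 and 73.3 in the SE/SE libraries and 60.2, 65.9 and 62.2 in the wild-type libraries. Peg13 (chr15:72809899-72810467), an imprinted RNA from inside Trappc9, had 65.1, 70.5 and 71.2 in the SE/SE libraries and 59.3, 64.2 and 52.8 in the wild-type libraries. Airn, the antisense RNA that silences Igf2r, had 39.7, 48.1 and 44.9 in the SE/SE libraries and 17.0, 30.2 and 9.82 in the wild-type libraries at its start (chr17:12741188-12741415). Norad, which binds Pumilio proteins, had 48.8, 53.5 and 52.6 in the SE/SE libraries and 39.3, 39.4 and 25.01 in the wild-type libraries. All libraries had a peak at these 4 genes, while Hotairm1, in the Hoxa cluster, had 22.2, 39.4 and 25.5 in the SE/SE libraries and 11.3 and 11.9 in 2 wild-type libraries.

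Of 13 listed host genes of miRNAs, 7 had a region and 6 had a peak in all 6 libraries, leaving aside Mir6236, a miRNA gene in the same list. Dleu2, which carries miR-15a and miR-16-1, had a broad region at its start (chr14:61680950-61683101) with 87.9, 98.3 and 98.5 in the SE/SE libraries and 97.9, 86.7 and 87.4 in the wild-type libraries. Mir22hg had 89.0, 89.2 and 90.3 in the SE/SE libraries and 90.1, 90.1 and 87.7 in the wild-type libraries. C130071C03Rik, the host of Mir9-2, had 74.6, 81.8 and 82.7 in the SE/SE libraries and 68.8, 68.1 and 59.0 in the wild-type libraries at its start (chr13:83720833-83721954), and Mir124a-1hg had 52.4, 57.0 and 54.5 in the SE/SE libraries and 22.3, 30.1 and 18.6 in the wild-type libraries. Mir9-3hg had 20.2 and 0.908 in 2 SE/SE libraries and no peak in wild type.

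Over the 6 lists of noncoding genes, 84 of 201 autosomal genes had a region. A peak was present at 78, 80 and 81 of the 84 in the SE/SE libraries and at 64, 70 and 66 in the wild-type libraries, and 63 genes had one in all 6. The mean over SE/SE libraries was 79.7 ± 1.53, against 66.7 ± 3.06 over wild-type libraries (SD, n = 3 each). The ranges did not overlap with full lists, but at equal list length the difference of the means was 0.667 genes. Over all merged regions, counted singly and not by gene, the ranges did not overlap either. They were 79.9% to 93.2% in the SE/SE libraries and 54.2% to 69.5% in the wild-type libraries, with 52.0% of regions in all 6.

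**Figure D5:**
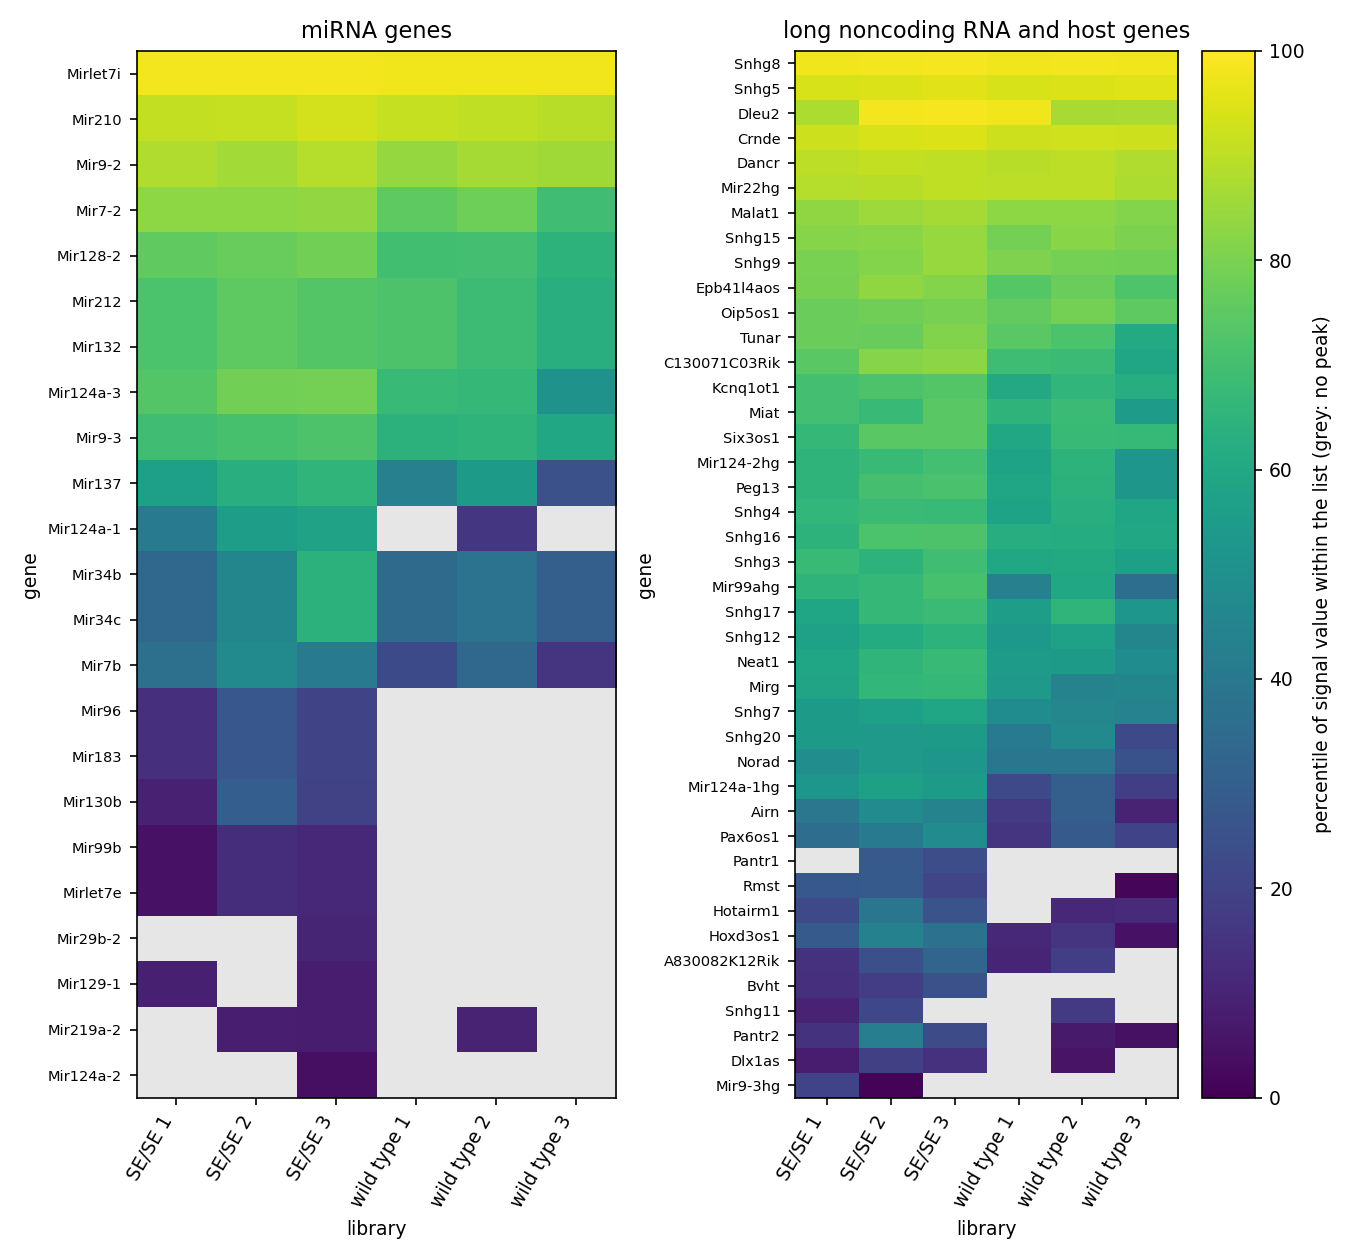
Percentile of the deposited signal value within the list of each library, for listed miRNA genes (left) and listed lncRNA and host genes (right) with a region at an end, taking the strongest region of a gene. Columns are the 3 SE/SE and 3 wild-type libraries, grey marks no peak, and ranks compare genes within a column; Mirlet7i and Snhg8 stand near 98 in all 6.

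Neural miRNA genes ranged from the strongest peaks of the lists to none. Of 82 listed miRNA genes, 23 had a region. A peak was present at 20, 20 and 23 of them in the SE/SE libraries and at 13, 15 and 13 in the wild-type libraries. All 6 libraries had one at 13 genes. Over all merged regions the genotypes did not overlap either, and 52.0% had a peak in all 6. Mirlet7i, of the let-7 family that rises with differentiation, had a region over the gene and its 5′ side (chr10:122985267-122986635) at 98.1, 98.3 and 98.4 in the SE/SE libraries and 97.7, 97.9 and 97.9 in the wild-type libraries. Mir210, known from the response to low oxygen, had 90.7, 91.1 and 93.1 in the SE/SE libraries and 91.3, 90.3 and 89.4 in the wild-type libraries (chr7:141221328-141222338). Both ranked near the top of every list.

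The miRNA genes known from neural progenitors and neurons covered a wide range of ranks. Mir9-2 had 2 regions, and the stronger one (chr13:83739429-83740183), 921 bp beyond its 3′ end, had 88.0, 86.1 and 88.9 in the SE/SE libraries and 84.2, 86.4 and 85.8 in the wild-type libraries. Mir9-3 had 69.4, 70.9 and 72.1 in the SE/SE libraries and 64.1, 65.2 and 59.6 in the wild-type libraries. Mir7-2, a source of miR-7a, had 83.1, 82.9 and 83.9 in the SE/SE libraries and 75.3, 77.8 and 69.5 in the wild-type libraries (chr7:78887302-78888009), and Mir7b, whose miRNA has the same seed, had 36.9, 47.7 and 41.5 in the SE/SE libraries and 22.6, 33.3 and 15.3 in the wild-type libraries. Mir132 and Mir212, neighbours with 1 seed, shared a region (chr11:75173086-75173821) at 71.5, 75.2 and 73.1 in the SE/SE libraries and 72.0, 68.6 and 62.7 in the wild-type libraries. Mir128-2, inside Arpp21, had 75.4, 76.8 and 78.6 in the SE/SE libraries and 69.6, 70.2 and 64.7 in the wild-type libraries, and Mir137, a neuronal miRNA, had 56.4, 62.5 and 65.6 in the SE/SE libraries and 43.4, 54.3 and 24.9 in the wild-type libraries. A peak was present in all 6 libraries at each of these 8 genes.

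The 3 genes of the neuronal miR-124 differed. Mir124a-3 (chr2:180893634-180894692) had 3 regions, all with a peak in 6 of 6 libraries, and the one over the gene had 73.3, 78.8 and 78.9 in the SE/SE libraries and 67.9, 66.8 and 50.9 in the wild-type libraries. Mir124a-1 (chr14:64589603-64590430) had 40.9, 55.7 and 57.8 in the SE/SE libraries and 16.0 in 1 wild-type library. At equal list length its peak was kept in all 3 SE/SE libraries, and the cut removed that of the 1 wild-type library. This pattern was then seen at 17 of 1751 regions (0.971%), against 1.40% of 30492 merged regions. Mir124a-2 had a peak in 1 SE/SE library only, at percentile 4.20.

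At several listed miRNA genes the region kept here had a peak only in SE/SE libraries. Mir183 and Mir96, of the photoreceptor cluster, shared a region of 193 bp (chr6:30169239-30169431) at 13.5, 27.1 and 20.7. Mir130b and Mir301b, 2 miRNAs of 1 family, shared one (chr16:17124063-17124294) at 9.19, 29.8 and 19.7, which lay 1024 bp from a protein-coding gene end. A further region near an end of Mir130b lay at a protein-coding gene end and was not kept, so the pattern is that of the kept region only. Mir99b and Mirlet7e, whose let-7 seed is that of Mirlet7i, shared one (chr17:17829457-17829582) at 5.03, 13.0 and 11.1. All 9 of these values lay below percentile 30 of their lists. Across all miRNA genes, the 9 regions found in SE/SE alone also served Mir24-2, Mir27a and Mir23a together, Mir199b, Mir370, Mir1983, Mir7656 and Mir7689, and 9.68% of miRNA regions showed this pattern, against 8.22% of all merged regions.

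Of 37 listed genes of structured small RNAs, 18 had a region of this kind, 9 had one only at a protein-coding gene end and 10 had none. Of the 18, 16 had a peak in 6 of 6 libraries. The 4 copies of the U3 gene, Rnu3b1 to Rnu3b4, whose RNA guides the first cuts of ribosomal RNA, stood close together on chromosome 11 inside Tex14. Rnu3b1 (chr11:87442786-87443886) had percentiles of 93.0, 93.0 and 94.3 in the SE/SE libraries and 95.3, 95.2 and 91.9 in the wild-type libraries. Rn7s2 (chr12:69361146-69361904), a gene of 7SL, the RNA of the signal recognition particle, had 91.5, 91.9 and 91.8 in the SE/SE libraries and 92.3, 92.6 and 91.4 in the wild-type libraries. Rn7sk (chr9:78175294-78175694), whose RNA holds the elongation factor P-TEFb inactive, had 77.1, 80.1 and 80.0 in the SE/SE libraries and 79.0, 79.9 and 76.1 in the wild-type libraries. All of these ranked in the upper part of every list, and the U3 and 7SL copies are near-identical to others in the genome.

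Genes of spliceosomal, telomerase and guide RNAs spanned a wider range of ranks. Rnu2-10, a U2 gene, had 83.4, 83.5 and 90.1 in the SE/SE libraries and 83.0, 82.6 and 78.5 in the wild-type libraries (chr11:101657721-101659057), and Rnu1a1, a U1 gene in the same stretch as the U3 copies, had 75.05, 77.5 and 81.8 in the SE/SE libraries and 78.5, 76.8 and 72.9 in the wild-type libraries. Rnu11, of the minor spliceosome, had 64.6, 66.6 and 71.8 in the SE/SE libraries and 61.3, 59.0 and 53.8 in the wild-type libraries. Terc, the template of telomerase, had 58.7, 65.9 and 63.9 in the SE/SE libraries and 41.6, 59.0 and 49.7 in the wild-type libraries (chr3:96414355-96414984). Scarna2, a guide RNA of Cajal bodies, had 76.1, 76.4 and 78.2 in the SE/SE libraries and 66.6, 68.8 and 73.6 in the wild-type libraries, and Rny1, a Y RNA that binds the Ro protein, had 56.4, 54.8 and 55.8 in the SE/SE libraries and 50.02, 48.8 and 42.7 in the wild-type libraries. Each had a peak in all 6 libraries, whereas Rny3 and Rnu1b1 had one in 1 SE/SE library only.

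Repeated small RNA genes formed clusters of open regions. The 5S ribosomal RNA array on chromosome 8 (chr8:123538741-123622326) had 46 regions, of which 33 had a peak in 6 of 6 libraries, with median percentiles of 3.19 to 53.8. A transfer RNA cluster on chromosome 1 (chr1:171033757-171111790) had 15 regions, 12 of them in all libraries. The largest transfer RNA cluster, on chromosome 13 (chr13:21160773-21327684), had 19 regions, of which 4 were in all libraries. The strongest transfer RNA region (chr3:19627843-19629402), which serves n-TYgta2, n-TYgta1, n-TAagc14 and n-TRacg3, had 98.4, 99.1 and 99.0 in the SE/SE libraries and 98.8, 98.7 and 98.8 in the wild-type libraries. Clusters of the same gene class thus differed widely in how many of their regions all libraries shared, and the copies in each can share reads.

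The 201 regions found in SE/SE alone had weak peaks. Their median percentile over the SE/SE libraries ran from 1.83 to 46.2, with a median of 18.8, so that all 201 lay under percentile 50. The strongest was at Gm29508 (chr12:103314837-103315327), 313 bp from a gene end in Fam181a, with 45.9, 46.2 and 49.9. It was followed by Gm39150, Gm17396, A230103O09Rik, 2900005J15Rik, Gm46347, Gm32683, Gm32949, the transfer RNA gene n-TAagc19 and Gm34049. Of the lncRNAs without a provisional symbol, 8 had this pattern. They were BC106179, Bloodlinc, Bvht, Carlr, Dmrta2os, Lncpint, Mirc35hg and Zeb2os, with median percentiles from 6.72 at Carlr to 25.6 at Lncpint. The region of Lncpint (chr6:31218260-31218641) had 3.48, 25.6 and 32.0. None of these regions had a peak in a wild-type library. With lists of equal length 17 of 1751 regions had this pattern (0.971%, against 1.40% of 30492 merged regions), of which 2, at Gm29508 and 2900005J15Rik, were among the 201. The count was 371 without SE/SE library 1 and 346 without wild-type library 2. With 1 library fewer the pattern is easier to meet, and all such counts, 207 to 371, were above 201.

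The only noncoding gene-end region with a peak in every wild-type library and no SE/SE library was that of Gm46178. It made up 0.0386% of the set, against 0.0329% of all merged regions with this pattern. The region (chr1:191120890-191121061) was 172 bp wide and centred 73 bp from the 5′ end of this lncRNA gene of unknown role. Its percentiles were 23.4, 24.4 and 9.27 in the wild-type libraries, and none of the 3 SE/SE lists held a peak there, although both joint lists did. At equal list length 10 of 1751 regions (0.571%) had this pattern, against 97 of 30492 merged regions (0.318%). Gm46178 was 1 of them, and the other 9 lay over or beside regions that SE/SE libraries had in their full lists, among them 3 of the 5S array.

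Regions near the limits of the rule had similar shares on both sides. Of the 141 regions in the last 100 bp inside the limit from a noncoding end, 65 (46.1%) had a peak in all libraries, and of the 152 in the first 100 bp outside it 70 (46.1%). Of the 34 regions kept within 100 bp of the limit from a protein-coding end 17 had a peak in all libraries, and of the 43 left out on the other side 23 (53.5%). Farther from protein-coding genes fewer regions were shared, from 57.4% at 1 to 5 kb to 41.9% beyond 100 kb.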

How the data were processed

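The authors deposited 1 narrowPeak list for each of 6 libraries and 2 joint lists named for a genotype, without column names. Genrich 0.5, bedtools 2.27.0, BWA, cutadapt and limma, and the build GRCm38 (mm10), are listed per the submitters' processing notes, without roles. Trimming, Tn5 shifting, duplicate removal and multi-mapped reads are not given in the sources used here. The deposited signal value was at least 20 in every list, and the deposited score equalled 1000 times signal over width, capped at 1000, for 100% of peaks, so signal grows with width. No scaling between lists is known, and read depth is unknown, so precision rests on 3 libraries per genotype.

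Peaks were merged at 1 bp, and midpoints were set against RefSeq gene ends of GRCm38.p6, which give no strand; strand came from RefSeq promoter windows where present. A library had a region if a peak overlapped it. Positions count from 1. Values per library were compared by exact two-sided permutation over 20 assignments, with Benjamini-Hochberg adjustment over 19 values; the smallest p is 0.1. The calculations used Python 3.11.15, numpy 2.4.6 and pandas 2.3.3 and were tested on simulated data.

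The regions, gene lists, markers and tests were chosen with earlier results of these data known. Named genes are, up to 12 per list by median percentile, the listed genes with a region; the 10 regions with the highest lowest percentile; up to 10 regions per genotype-only pattern; the first region of each biotype; and up to 10 miRNA genes. Some genes named by the rule are not reported. Weaker listed genes and the SE/SE-only genes with other symbols were added after their values were seen, as was 1 alternative that left out protein-coding promoter windows. For lncRNA members, 1456 of 1874 genes, and for miRNA members 93 of 104 genes, had a RefSeq sequence.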

Additional observations from a re-analysis of the deposited data

How the results depend on the processing

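Of 121 alternative values, 102 were counted as unchanged. For tested values this meant only the same sign, since no exact permutation p of these libraries can fall under 0.05. For counts of regions it meant a change within a fixed fold limit. The size of a difference was not part of it. At equal list length the difference fell from 652 to 36.3 regions per library and from 13.0 to 0.667 listed genes. Both were still counted as unchanged. The share of a library's regions that lie at noncoding gene ends, SE/SE minus wild type, was -0.0744 percentage points and turned positive when a peak had to cover at least 0.5 of the region (0.0701), within 2 kb of the end (0.243), more than 5 kb from protein-coding ends (0.0194), at a signal value of at least 100 (0.142), for lncRNA genes only (0.0523) and without protein-coding promoter windows (0.0854, chosen after seeing the data). The count of regions in SE/SE libraries only was 201 of 2592 (7.75%, against 8.22% of all merged regions) in the main setting. It was 121 of 1737 within 500 bp and 333 of 3857 within 2 kb. Without provisional symbols it was 23 of 450, and at 5′ ends only 88 of 1420. At equal list length it was 17 of 1751 (0.971%, against 1.40% of all merged regions). These settings keep different numbers of regions, so the counts alone cannot be compared. The count in wild-type libraries only was 10 at equal list length and 0 without provisional symbols, beside 1. The count in all libraries was 285 without provisional symbols and 763 at 5′ ends only, beside 1341, since both settings keep fewer regions. Leaving out 1 library at a time gave 207 to 371 regions in SE/SE only, 1 to 2 in wild type only and 1348 to 1516 in all libraries left. These patterns are easier to meet with 1 library fewer. The difference in regions per library was then 556 to 755. For the other settings the cause was not tested.

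Whether replicate numbers pair the libraries is not known. The correlation of deviations was 0.0226 to 0.0257 for libraries with the same number and -0.0190 to -0.00588 for those with different numbers. Each library correlated best with its own number, as a hint from the data, but all of these values were small. With the replicate block the difference stayed at 652 regions, with an exact permutation p of 0.25, the smallest that 8 assignments allow, and 13.0 listed genes (exact permutation p = 0.25). Without read counts, weak peaks missing from a short list cannot be told apart from closed chromatin.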
